A study of Mus musculus with 2 samples.

Results

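The proteasome genes were chosen by symbol, as the rows of both matrices whose name starts with Psm, a letter from a to g and a number. 51 of the 25828 features matched, none of them a pseudogene. 48 of the 51 encode proteasome parts, assembly factors or regulators: 31 constitutive subunits of the 26S proteasome, 3 immunoproteasome subunits, 2 tissue-specific core subunits, 7 assembly chaperones, 4 activators and 1 inhibitor. The other 3 are Psmc3ip and Psme3ip1, which match by letters and encode no subunit, and Psme2b, a near-copy of Psme2 whose reads may be split with it.

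The cells were mouse induced myogenic progenitor cells (iMPCs), fibroblasts turned into muscle progenitors by 4 transfections with synthetic MyoD mRNA, and carried a Pax7-nGFP transgene on a C57BL6 and DBA2 background. By the study's methods B18R, a decoy receptor for type I interferon, was in the medium during the transfections and shortly after the last one. Both groups received medium with the 3 compounds F/R/C. These were Forskolin, which raises cyclic AMP, RepSox, which inhibits TGF-beta receptor signalling, and CHIR, which inhibits GSK3. The second group, F/R/C+CP, also received CP, a JAK inhibitor, and is called the CP library below. Each group was 1 droplet library of a transgene-free clone, strained to remove multinucleated fibres. The effects of treatment and clone cannot be told apart, and the comparison of libraries is unreplicated.

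The 26S proteasome degrades proteins tagged with ubiquitin. Its core is a barrel of alpha rings, which gate the entrance, and beta rings, which hold the proteolytic sites. A cap made of a base of ATPases and a lid that removes ubiquitin feeds substrates into the core. Interferon signalling through JAK and STAT proteins is known to induce the immunoproteasome subunits and the activator Psme1-Psme2, and skeletal muscle is known for its dependence on proteasomal protein turnover.

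The barcode filters of the study's methods left 3962 of 5541 barcodes with F/R/C and 10834 of 12000 with CP, with 18 barcode sequences in both libraries. The kept barcodes held 27850218 and 271351748 unique molecular identifiers (UMIs), with medians of 7112 and 21844.5 UMIs per barcode and, with CP, no barcode under 12097 UMIs. Barcodes were put in groups by 3 genes: the 10% with the highest Acta1 share (Acta1-high, differentiated muscle), then as many with the highest Myog share (Myog-high, committed cells), then those with at least 1 Pax7 UMI (Pax7-positive progenitors). This gave 1838 Pax7-positive, 396 Myog-high and 396 Acta1-high barcodes with F/R/C and 6084, 1083 and 1083 with CP. The summed levels of 10 muscle markers were 637.3, 5607 and 45270 counts per 1000000 UMIs (CPM) in these groups of F/R/C and 5420, 12700 and 69890 CPM with CP. Even the 10% of CP barcodes lowest in Acta1 held 419.3 CPM of it, against 0 with F/R/C. Where this Acta1 came from and its part in the values below were not tested. Of the 4 immune markers, 3 were at 0 in every F/R/C group and their sum stayed at or under 3.64 CPM in every group of either library.

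Levels are CPM of UMIs summed over the barcodes of a group, from 3-prime tags, and are compared between groups and not between genes. A gene is called measured where the mean of the 2 CPM is at least 10. Its log2 ratio has a 95% interval that covers counting error only, and ratios below that minimum are given, with their UMIs, for Psmb8 and Psmb9 only. A ratio of at least 0.5 in either direction is called past the fold. 46 of the 51 genes were measured in each comparison, or 45 between libraries in the Myog-high and Acta1-high groups, where Psmc3ip dropped below the minimum. Psma8 and Psmb11, core subunits of testis and thymus, stayed under 1 CPM in every group, and Psmb8, Psmb9 and Psme2b were also too low.

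The constitutive 26S genes together took a larger share of the UMIs in Myog-high barcodes than in Pax7-positive barcodes of both libraries. A sum over barcodes cannot tell fewer cells with a gene from less RNA per cell. The summed share was 0.6157% of UMIs in Pax7-positive, 0.7657% in Myog-high and 0.6675% in Acta1-high barcodes of F/R/C. With CP it was 0.606%, 0.8326% and 0.8371%. Each Myog-high interval lay above the Pax7-positive interval of its library (F/R/C 0.756% to 0.7755% against 0.6116% to 0.6198%, CP 0.8292% to 0.8359% against 0.6047% to 0.6073%). These intervals cover the counting error of summed UMIs only and leave out the spread between barcodes. The libraries differed in the Acta1-high group, which was near the Pax7-positive level with F/R/C and at the Myog-high level with CP. Median mitochondrial UMIs were 7.61%, 9.53% and 11.3% in the 3 groups with F/R/C and 5.46%, 5.76% and 5.81% with CP, and their part in this difference was not tested.

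Single barcodes showed the same order. The median share per barcode was 0.608%, 0.768% and 0.668% in Pax7-positive, Myog-high and Acta1-high barcodes of F/R/C and 0.596%, 0.809% and 0.826% with CP. The ranges overlapped widely: 10% of Pax7-positive CP barcodes were above 0.774%, and 10% of Acta1-high ones were below 0.531%. Median depth in the same groups was 7514, 7804 and 7876 UMIs with F/R/C and 20902.5, 24050 and 40901 UMIs with CP, so that the Acta1-high group of the CP library was also the deepest. The summed markers of cycling cells were 1107, 580 and 45.7 CPM with F/R/C and 1008, 284.6 and 53.5 CPM with CP. The parts of depth and cycling in the proteasome share were not tested beyond the alternatives given at the end.

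**Figure D1:**
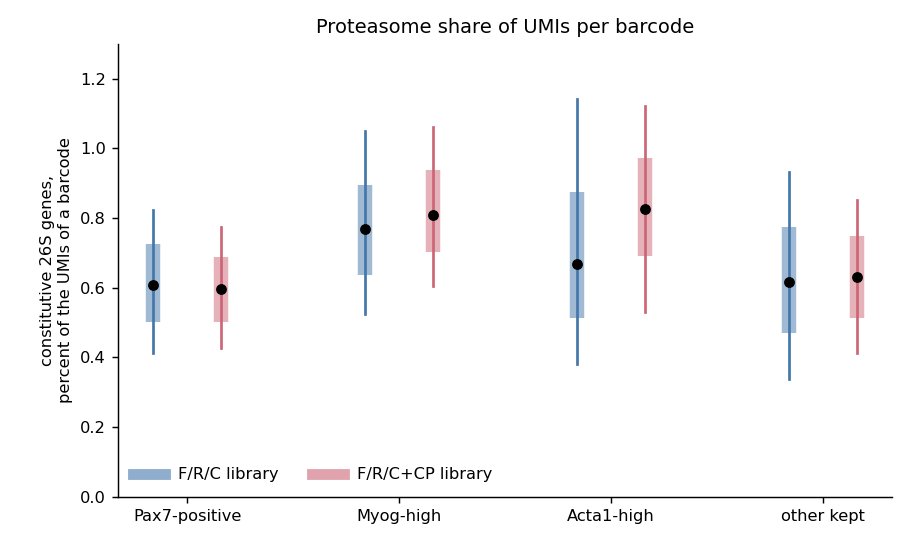
Constitutive 26S genes as percent of the UMIs of a barcode (vertical axis) by barcode group and library; dots are medians, thick bars the middle 50% and thin lines the 10th to 90th percentile of barcodes. The Myog-high medians (0.768% and 0.809%) sit above the Pax7-positive medians (0.608% and 0.596%) in both libraries, and the Acta1-high median is high with CP only (0.826% against 0.668%).

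Along Acta1 the share was higher only toward the top of each library. With kept barcodes cut into 10 equal bins by Acta1 share, of which the 4 lowest with F/R/C all held 0 Acta1 and have no order among them, the 7 lowest bins lay between 0.6156% and 0.6435% with F/R/C and between 0.6251% and 0.6395% with CP. In F/R/C the 3 highest bins held 0.6562%, 0.6682% and 0.6675%. With CP they held 0.674%, 0.7022% and 0.8371%, so that the highest bin stood apart from the rest in that library.

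**Figure D2:**
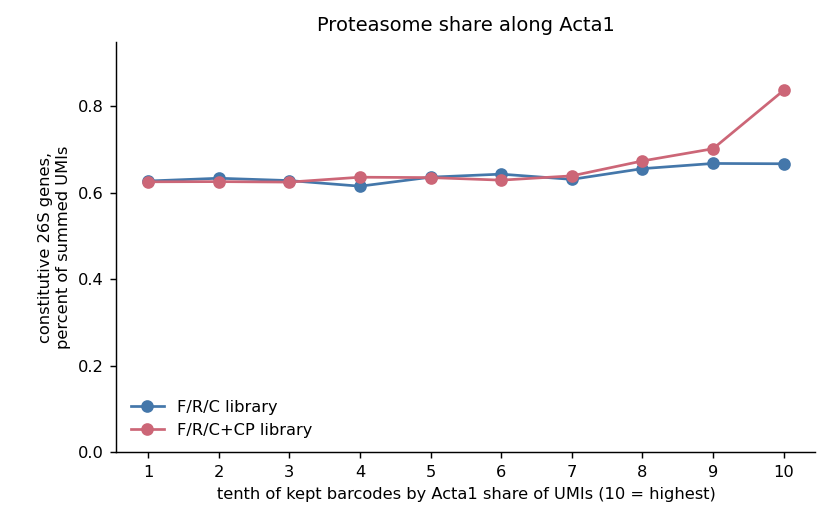
Constitutive 26S genes as percent of summed UMIs (vertical axis) in 10 bins of kept barcodes ordered by their Acta1 share (horizontal axis, 10 the highest; bins 1 to 4 of F/R/C hold no Acta1 and are in arbitrary order), 1 line per library. Both lines are level near 0.63% up to bin 7, and the CP line ends at 0.8371% where the F/R/C line ends at 0.6675%.

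Taken gene by gene, 28 of the 31 constitutive genes were higher in Myog-high than in Pax7-positive barcodes of F/R/C and 30 of 31 with CP. Their median log2 ratios were 0.30 and 0.45, where all measured features had medians of -0.22 and -0.19. 8 genes with F/R/C and 11 with CP were past the fold upward and none downward, against 14.5% and 12.9% of all features upward and 34.5% and 32.2% downward. The same 28 genes were higher in both libraries and 1 was lower in both. Across the 31 genes the ratios of the libraries had a Pearson correlation of 0.92, beside 0.89 across 7392 features measured in both, given as a description of genes that share 2 libraries.

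In Acta1-high barcodes the constitutive genes divided. 16 of 31 were higher than in Pax7-positive barcodes of F/R/C, with a median of 0.05, and 25 of 31 with CP, with a median of 0.38. 6 and 12 genes were past the fold upward, against 15.7% and 18.9% of all features, and 1 and 0 downward, against 54.7% and 49.2%. The medians of all features were -0.62 and -0.48, so that the constitutive genes lay above the typical gene also where their CPM was level. Scaling to the median feature of at least 50 CPM, which was at -0.39 and -0.20, put 30 of 31 genes higher in each library, and trimmed means of M-values (TMM) put 30 and 31 higher. Without the barcode filter, 8 of 31 were higher with F/R/C and their median was -0.30. No direction is therefore given for the whole list in these barcodes.

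**Figure D3:**
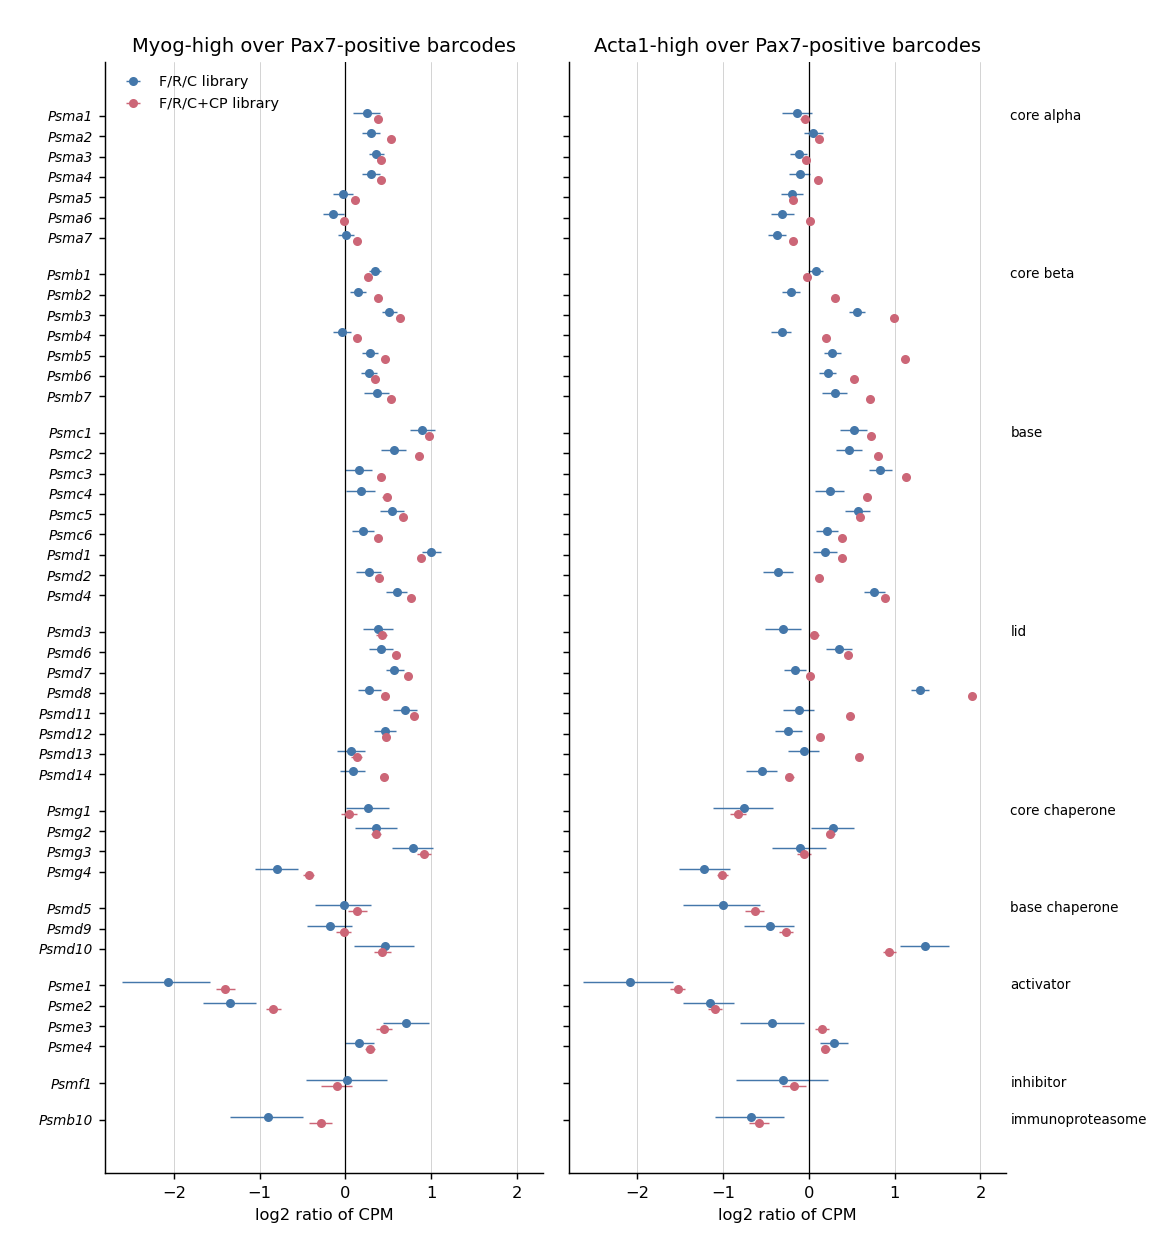
Log2 ratios of CPM (horizontal axis) of the measured proteasome genes, by role, in Myog-high (left) and Acta1-high (right) over Pax7-positive barcodes, 1 colour per library, with 95% counting intervals. Nearly all subunits lie right of 0 on the left panel, while on the right Psmd8 reaches 1.30 and 1.90 and Psme1 lies at -2.09 and -1.53.

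The alpha subunits (Psma1 to Psma7), which form the outer rings, varied least among the 4 subunit roles in Acta1-high barcodes. Their ratios there spanned 0.42 with F/R/C and 0.32 with CP. In Myog-high barcodes their span was the smallest with F/R/C (0.50) but not with CP (0.55, against 0.51 for the beta subunits). The alpha ratios in Myog-high barcodes had medians of 0.25 and 0.38 in the F/R/C and CP libraries, with Psma2 the only one past the fold, at 0.53 with CP. In Acta1-high barcodes the medians were -0.14 and -0.04, and all 7 genes lay between -0.37 and 0.12. Under both other scalings all 7 were higher, so no direction is given for this ring. Psma7 was at 384.7, 386.2 and 297.1 CPM in Pax7-positive, Myog-high and Acta1-high barcodes of F/R/C and at 395.7, 432.2 and 347.9 CPM with CP.

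The beta subunits spanned 0.89 and 1.14 in Acta1-high barcodes of F/R/C and CP, and 0.56 and 0.51 in Myog-high barcodes, where the alpha subunits spanned 0.50 and 0.55. Psmb5, which carries the chymotrypsin-like site, was at 301.2, 367.1 and 362.8 CPM with F/R/C and at 253.2, 347.8 and 548.7 CPM with CP. In Acta1-high over Pax7-positive barcodes its ratio was 0.27 (0.17 to 0.37) with F/R/C and 1.12 (1.09 to 1.14) with CP, the second 2.17-fold. Psmb5 was thus higher in Acta1-high barcodes of both libraries, by unequal amounts, but without the barcode filter its F/R/C ratio was -0.07.

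Psmb6, the caspase-like subunit, followed at 0.22 (also -0.07 without the filter) and 0.52, and Psmb7, the trypsin-like subunit, at 0.30 and 0.71. Psmb3, a beta subunit without a proteolytic site, was past the fold in both groups and both libraries, at 0.51 and 0.64 in Myog-high and 0.56 and 0.99 in Acta1-high barcodes. Its levels were 307.8, 439.7 and 454.6 CPM with F/R/C and 264.3, 412.2 and 525.2 CPM with CP, lowest in the Pax7-positive group of each library. Psmb4 (-0.32 and 0.20 in Acta1-high) and Psmb2 (-0.21 and 0.30) went opposite ways in the libraries on the CPM scale.

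The promoter of Psmb5 is shown because, of the core subunits, this gene had the highest ratio of CP over F/R/C in Acta1-high barcodes (0.60). Of the other subunits, Psmc1, Psmc3, Psmd4, Psmd8 and Psmd12 had higher ratios there. The promoter of Psmb5 also holds the antioxidant response element core, a site for NRF factors, as do 14% of all genes searched. The RefSeq sequence covers 250 bases before to 50 after the gene's start on the minus strand of GRCm38.p6, chr14:54617946-54618245, and capitals mark the element, at position -47 from the gene's start.
Psmb5: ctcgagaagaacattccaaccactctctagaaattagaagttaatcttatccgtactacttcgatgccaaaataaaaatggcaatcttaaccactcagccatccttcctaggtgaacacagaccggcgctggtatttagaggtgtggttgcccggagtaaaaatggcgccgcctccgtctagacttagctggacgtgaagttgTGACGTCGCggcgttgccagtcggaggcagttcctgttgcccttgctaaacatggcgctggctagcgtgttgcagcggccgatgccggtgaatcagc

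The base had the highest median ratios of the 4 subunit roles. All 9 base genes were higher in Myog-high barcodes of both libraries, with medians of 0.54 and 0.67, and 8 and 9 of 9 in Acta1-high barcodes, with medians of 0.47 and 0.68. Without the barcode filter, 5 of the 9 were higher in Acta1-high barcodes of F/R/C, with a median of 0.15, the others being Psmc4, Psmc6, Psmd1 and Psmd2. The 6 ATPases (Psmc1 to Psmc6), which unfold substrates, were all higher in both groups of both libraries on every scaling, and Psmc4 and Psmc6 lost this with F/R/C without the filter. Psmc1 was at 98.5, 183.1 and 140.9 CPM with F/R/C and at 148.9, 292.9 and 245.3 CPM with CP, highest in the Myog-high group of each, with Myog-high ratios of 0.89 (0.75 to 1.04) and 0.98 (0.94 to 1.01).

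Psmc3 had another order. It was at 120.5, 134.5 and 214.7 CPM with F/R/C and at 234.9, 315.2 and 513.1 CPM with CP. Its ratios were 0.16 (-0.00 to 0.31) and 0.42 (0.39 to 0.46) in Myog-high barcodes and 0.83 (0.70 to 0.97) and 1.13 (1.10 to 1.15) in Acta1-high barcodes, so that it was highest in the differentiated group. Psmc2 (0.57 and 0.86 in Myog-high, 0.47 and 0.81 in Acta1-high) and Psmc5 (0.54 and 0.67, then 0.57 and 0.59) were similar in both groups.

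Psmd4, a ubiquitin receptor of the base, was past the fold in all 4 comparisons within libraries, between 0.60 and 0.89. Psmd1, a large scaffold subunit, was a Myog-high gene: 152.2, 303.9 and 173.4 CPM with F/R/C and 172.2, 318.0 and 223.5 CPM with CP. Its Myog-high ratios of 1.0 (0.89 to 1.11) and 0.88 (0.85 to 0.92) compare with 0.19 (-0.12 without the barcode filter) and 0.38 in Acta1-high barcodes. Psmd2, the other large scaffold, stayed at 0.27 and 0.39 in Myog-high barcodes and was at -0.36 and 0.12 in Acta1-high barcodes. In the GRCm38 annotation Psmd1 overlaps the same-strand genes Gm37914 and Gm21972, and Psmc3 overlaps Slc39a13 on the other strand.

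The lid spanned more than the other 3 subunit roles in Acta1-high barcodes, 1.85 with F/R/C and 2.13 with CP. All 8 lid genes were higher in Myog-high barcodes of both libraries, with medians of 0.39 and 0.46. Psmd11 (0.70 and 0.80) and Psmd7 (0.57 and 0.73) were past the fold in both libraries. In Acta1-high barcodes 2 and 7 of the 8 genes were higher, with medians of -0.14 and 0.30, or 0.25 and 0.50 when scaled to the median feature.

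Psmd8 stood apart. It was at 157.9, 192.1 and 387.8 CPM with F/R/C and at 160.3, 220.8 and 600.2 CPM with CP, so that its Pax7-positive levels were nearly equal in the libraries and its Acta1-high level was the highest in each. Its Acta1-high ratios were 1.30 (1.19 to 1.40) and 1.90 (1.88 to 1.93), the highest of the measured proteasome genes with CP and second to Psmd10 with F/R/C. Psmd14, the deubiquitinating enzyme of the lid, went the other way in the same barcodes, at -0.55 (-0.73 to -0.37) and -0.23 (-0.27 to -0.18) on the CPM scale. The shift that TMM takes out of the F/R/C comparison, -0.55, was about as large as the Psmd14 ratio there. With TMM the CP value of Psmd14 turned positive. The medians of all features were -0.62 and -0.48, so that Psmd14 lay above the typical feature in both libraries.

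The Psmd8 promoter is shown because this gene had the largest Acta1-high ratio of any subunit in both libraries. It lies on the minus strand of GRCm38.p6 at chr7:29180624-29180923 and holds none of the 3 motifs searched.
Psmd8: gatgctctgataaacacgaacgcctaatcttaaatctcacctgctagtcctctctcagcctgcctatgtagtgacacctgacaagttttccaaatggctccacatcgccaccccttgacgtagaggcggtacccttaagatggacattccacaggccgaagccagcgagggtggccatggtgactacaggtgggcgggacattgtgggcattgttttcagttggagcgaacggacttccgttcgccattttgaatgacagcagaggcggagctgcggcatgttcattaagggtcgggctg

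Assembly chaperones had mixed ratios. Psmg1 and Psmg2 act as a pair on the alpha ring, as do Psmg3 and Psmg4. Psmg3 was at 37.6, 64.8 and 34.9 CPM with F/R/C and at 35.0, 66.2 and 33.6 CPM with CP, high only in Myog-high barcodes, with ratios of 0.79 (0.54 to 1.02) and 0.92 (0.84 to 1.0). Its partner Psmg4 was lower there, at -0.80 (-1.06 to -0.55) and -0.43 (-0.49 to -0.37), and lower still in Acta1-high barcodes, at -1.22 (-1.52 to -0.92) and -1.01 (-1.07 to -0.95). Psmg1 was at -0.76 and -0.83 in Acta1-high barcodes, and Psmg2 at 0.28 and 0.25. The medians of all features in these barcodes were -0.62 and -0.48.

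The base chaperones also went separate ways in Acta1-high barcodes. Psmd10, also known as gankyrin, was at 21.5, 29.5 and 54.5 CPM with F/R/C and at 29.4, 39.6 and 56.1 CPM with CP, highest in the Acta1-high group of both, with ratios of 1.35 (1.06 to 1.63) and 0.93 (0.86 to 1.01). Psmd5 was at -1.0 (-1.47 to -0.57) and -0.63 (-0.75 to -0.52), where all features had medians of -0.62 and -0.48. Psmd9 was at -0.46 and -0.27, and TMM turned both of these positive.

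Of the activators, the Psme1 and Psme2 pair, which forms the interferon-inducible PA28 cap, was lower in both muscle groups. Psme1 was at 47.6, 11.3 and 11.2 CPM in Pax7-positive, Myog-high and Acta1-high barcodes of F/R/C and at 70.6, 26.7 and 24.4 CPM with CP. Psme2 was at 78.8, 31.1 and 35.2 CPM with F/R/C and at 72.8, 40.8 and 33.9 CPM with CP. Both genes were thus highest in the Pax7-positive group of each library. Psme1 ratios were -2.07 (-2.60 to -1.58) and -1.40 (-1.51 to -1.29) in Myog-high barcodes, the lowest of the measured proteasome genes, and -2.09 (-2.64 to -1.58) and -1.53 (-1.62 to -1.45) in Acta1-high barcodes. Psme2 ratios were -1.34 and -0.84, then -1.16 and -1.10.

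Psme3, the activator of the nucleus, did not share this pattern. It was at 31.9, 52.2 and 23.7 CPM with F/R/C and at 32.5, 44.4 and 36.1 CPM with CP, highest in Myog-high barcodes, with ratios of 0.71 (0.44 to 0.97) and 0.45 (0.36 to 0.54). Psme4, the PA200 activator, was between 0.16 and 0.29 in the 4 comparisons within libraries, and thinning to 2000 UMIs turned the Myog-high value of F/R/C to -0.11. Psmf1, an inhibitor of the core named PI31, was low, from 10.8 to 15.2 CPM in every group, with ratios between -0.30 and 0.02. Psmc3ip, the recombination factor that only shares the letters, was at -3.41 and -3.14 in Acta1-high barcodes, from 21.5 to 2.03 CPM with F/R/C and from 27.8 to 3.14 CPM with CP.

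**Figure D4:**
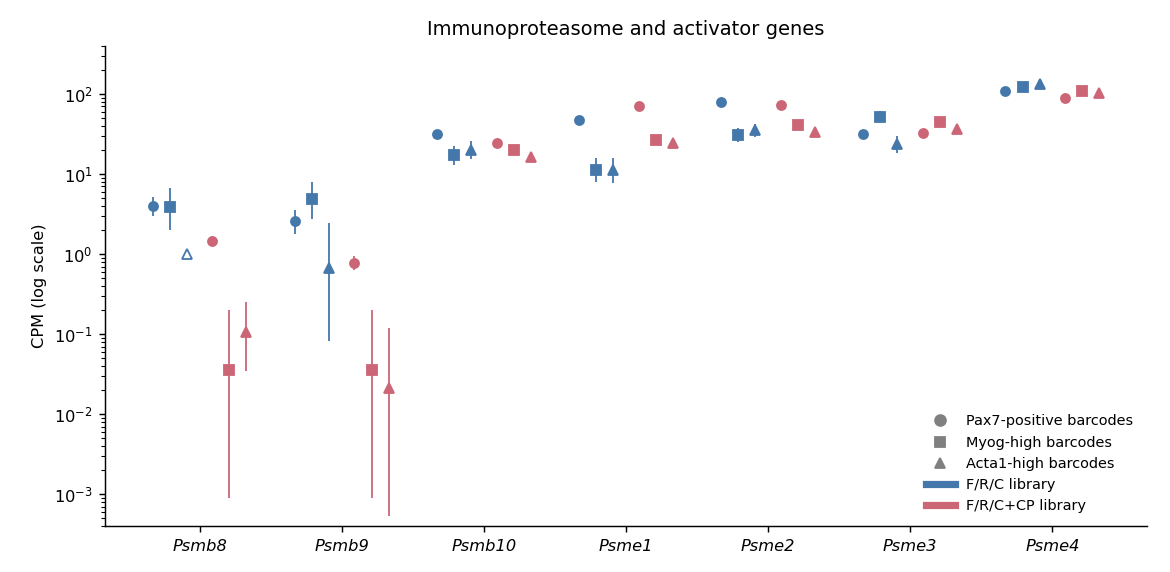
CPM on a log axis of the 3 immunoproteasome genes and the 4 activators in Pax7-positive, Myog-high and Acta1-high barcodes of each library; bars are 95% counting intervals, and the open triangle is the limit that 0 UMIs of Psmb8 allow. Psme1 and Psme2 are highest in Pax7-positive barcodes, and Psmb8 and Psmb9 fall below 0.11 CPM in the Myog-high and Acta1-high barcodes of the CP library.

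The immunoproteasome subunits, which replace Psmb5, Psmb6 and Psmb7 in new core particles, were near the floor except for Psmb10. Psmb8 had 56 UMIs in Pax7-positive, 12 in Myog-high and 0 in Acta1-high barcodes of F/R/C (3.99 and 3.89 CPM, and 0 UMIs, which allow up to 1.02 CPM). With CP it had 204, 1 and 5 UMIs (1.47, 0.0361 and 0.108 CPM). Psmb9 had 36, 15 and 2 UMIs with F/R/C (2.57, 4.86 and 0.677 CPM) and 108, 1 and 1 with CP (0.779, 0.0361 and 0.0215 CPM). The other kept barcodes held 40 and 141 Psmb8 UMIs and 36 and 25 Psmb9 UMIs of the libraries. The pair was thus present in Myog-high barcodes of the F/R/C library and near 0 in those of the CP library.

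The Myog-high difference between libraries was -6.75 (-12.17 to -4.00) for Psmb8, from 12 against 1 UMIs, and -7.07 (-12.47 to -4.37) for Psmb9, from 15 against 1. In the depth range that the libraries share (12097 to 23465 UMIs) there were 31 Myog-high barcodes with F/R/C and 502 with CP. They held 0 Psmb8 UMIs in both libraries, and 5 and 1 Psmb9 UMIs, a Psmb9 ratio of -6.79 (-12.35 to -3.63). Over all Myog-high barcodes Tap2, a peptide transporter gene of the same gene cluster, was at 27.9 CPM (86 UMIs) and 0.469 CPM (13 UMIs). It met the minimum for a measured gene through its F/R/C level only, and did not meet it over all kept barcodes. Its ratio was -5.89 (-6.86 to -5.04), and Tap1 was at 4.86 and 0.18 CPM. Over all kept barcodes Psmb8 had 108 UMIs with F/R/C and 351 with CP, or 3.88 and 1.29 CPM (-1.58, -1.90 to -1.26). Psmb9 had 89 and 135 UMIs, or 3.20 and 0.497 CPM (-2.68, -3.08 to -2.28). Both were thus lower over these sums with CP. In the GRCm38 annotation Tap1 overlaps Psmb9 on the other strand.

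Psmb10 was at 32.1, 17.2 and 19.98 CPM with F/R/C and at 24.4, 19.9 and 16.4 CPM with CP, highest in the Pax7-positive group of each. Its ratios were -0.90 (-1.34 to -0.49) and -0.29 (-0.43 to -0.16) in Myog-high and -0.68 (-1.10 to -0.29) and -0.58 (-0.70 to -0.47) in Acta1-high barcodes. Thinning barcodes to 2000 UMIs turned the Myog-high value with CP to 0.08. All features had medians of -0.22 and -0.19 in Myog-high and of -0.62 and -0.48 in Acta1-high barcodes. The Acta1-high ratios of Psmb10 were thus near that of the typical feature. As a share of the UMIs of the gene and its constitutive counterpart, Psmb10 made up 19.4%, 9.11% and 10.9% of Psmb10 plus Psmb7 with F/R/C and 15.5%, 9.42% and 6.98% with CP. Psmb8 made up at most 1.31% of Psmb8 plus Psmb5 in these groups, and Psmb9 at most 1.38% of Psmb9 plus Psmb6. The 3 genes are 3-prime counted at different efficiency, so these shares are compared between groups only.

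The 3 immunoproteasome genes summed to 36.3 CPM (1012 UMIs) with F/R/C and 24.0 CPM (6509 UMIs) with CP, a ratio of -0.60 (-0.69 to -0.50), and to -0.53 (-0.66 to -0.40) in Pax7-positive barcodes. Psmb10 gave 815 and 6023 of these UMIs. The difference changed sign among barcodes of 12097 to 23465 UMIs, where the libraries overlap but F/R/C has only 190 barcodes. There the sum was at 0.52 (0.11 to 0.96), with 49 UMIs with F/R/C. This range also changed the mix of barcodes, with 63 of 190 Pax7-positive with F/R/C and 3810 of 6213 with CP. In that range Psmb10 was higher with CP, at 0.96 (0.46 to 1.50), Psmb9 was lower, at -2.69 (-3.62 to -1.63), and Psmb8 was at -0.13 (-1.38 to 1.51) with 5 UMIs with F/R/C. For Pax7-positive barcodes in the range the sum was at 0.07 (-0.53 to 0.75). Thinning to 2000 UMIs instead gave a sum of -0.60 over all kept barcodes and of -1.11 in Pax7-positive ones. The parts of depth and of the mix of barcodes were not tested. No direction is therefore given for Psmb8, Psmb10 or the sum between libraries.

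Psmb8 and Psmb9 UMIs tended to sit in the same barcodes. In F/R/C, 15 of the 98 barcodes with Psmb8 also had Psmb9 (15.3%), against 1.66% of barcodes without Psmb8, at median depths of 8116 and 7087 UMIs. With CP it was 26 of 255 (10.2%) against 0.945%, at 20802 and 21865 UMIs. The counts rest on few barcodes, and 1 CP barcode alone held 17 of the 351 Psmb8 UMIs. Barcodes with a Psmb8 UMI were 2.66% of Pax7-positive barcodes and 0.462% of Acta1-high barcodes with CP, at median depths of 20902.5 and 40901 UMIs, and no barcode group is known to lack the gene.

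Promoters of Psmb8 and Psme1 are shown because, of the immunoproteasome and PA28 genes, these hold an interferon-related motif. Outside these, Psmg4 and Psmg1, lower in Acta1-high barcodes, hold one too, as do Psmb3, Psmc2 and Psmd4, which were higher there. Psmb4 and Psmd2, of opposite sign in the libraries, and Psmd9 also hold one. The Psmb8 sequence is on the plus strand of GRCm38.p6 at chr17:34197945-34198244, with a gamma-activated site in capitals at position -97 from the gene's start. The Psme1 sequence is on the plus strand at chr14:55578244-55578543. Its interferon-stimulated response element core, read on the other strand, is at position 11 after the start.
Psmb8: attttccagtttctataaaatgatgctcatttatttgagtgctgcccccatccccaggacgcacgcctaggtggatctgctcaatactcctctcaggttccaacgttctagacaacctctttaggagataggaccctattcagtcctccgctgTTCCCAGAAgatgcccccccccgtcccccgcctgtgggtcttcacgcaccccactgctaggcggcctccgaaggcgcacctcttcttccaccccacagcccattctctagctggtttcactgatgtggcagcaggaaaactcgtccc
Psme1: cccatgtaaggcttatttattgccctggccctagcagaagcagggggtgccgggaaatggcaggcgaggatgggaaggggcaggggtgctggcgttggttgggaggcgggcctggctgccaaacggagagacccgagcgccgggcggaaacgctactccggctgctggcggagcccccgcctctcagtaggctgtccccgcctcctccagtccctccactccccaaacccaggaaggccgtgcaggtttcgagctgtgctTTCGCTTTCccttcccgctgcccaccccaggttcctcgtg

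Of the 51 genes, 43 have a promoter in the RefSeq table. The antioxidant response element core (TGACNNNGC, both strands) is in 6 of them, which is 14% of genes, as in 14% of all 27025 genes of the table: Psmb5, Psmb6, Psmc6, Psmd9, Psmd12 and Psme4. The interferon-stimulated response element core (GAAANNGAA) is in 7 (16.3% against 9.76%) and the gamma-activated site (TTCNNNGAA), a palindrome that reads alike on both strands, in 3 (6.98% against 9.55%). Among the immunoproteasome genes only Psmb8 holds any of the 3 motifs in this window, and Psmb9, Psmb10 and Psme2 hold none. These are letter matches in 300 bases, and neither a match nor its absence measures binding.

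Between the libraries the constitutive genes past the fold over all kept barcodes were base genes, though their upward share was near that of all features. Over all kept barcodes 18 of the 31 constitutive genes were higher with CP, with a median of 0.05 beside -0.16 for all features, and 4 were past the fold upward and 0 downward, against 11.7% and 24.4% of features. Psmc3 was at 133.5 CPM with F/R/C and 298.7 CPM with CP (1.16, 1.11 to 1.21), Psmd4 at 169.2 and 293.1 CPM (0.79), Psmc1 at 117.8 and 188.0 CPM (0.67) and Psmc5 at 138.1 and 200.9 CPM (0.54). 8 of the 9 base genes were higher, with a median of 0.37, while the core alpha, core beta and lid medians were 0.02, -0.05 and 0.02.

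The counts within barcode groups were as follows. In Pax7-positive barcodes 15 of 31 constitutive genes were higher, with a median of -0.03 beside -0.15 for all features, and 3 and 1 were past the fold upward and downward, against 11.8% and 23.7%. In Myog-high barcodes 19 were higher, with a median of 0.14 beside -0.14, and 4 and 0 were past the fold, against 12.3% and 25.2%. In Acta1-high barcodes 25 were higher, with a median of 0.31 beside -0.03, and 9 and 0 were past the fold, against 18.8% and 21.9%, the 9 being 5 base genes, 3 lid genes and Psmb5. With TMM the genes higher were 26 of 31 over all kept barcodes and 20, 27 and 30 in the 3 groups.

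Psmc1, Psmc3 and Psmd4 were past the fold in all 3 barcode groups, with Psmc3 at 0.96, 1.23 and 1.26. On the CPM scale 15 constitutive genes were higher and 5 were lower in all 3 groups. The share of all features past the fold, or of the same sign, in all 3 groups was not counted. These counts are therefore not read as a trait of the proteasome genes. Psmb2 was the 1 gene past the fold downward, at -0.60 (-0.65 to -0.56) in Pax7-positive barcodes, with 302.1 CPM with F/R/C and 198.7 CPM with CP. Psmb1 was lower in each group, between -0.45 and -0.35. The catalytic subunits differed by group, with Psmb5 at -0.25, -0.08 and 0.60, Psmb6 at -0.14, -0.06 and 0.16 and Psmb7 at 0.00, 0.16 and 0.41 in Pax7-positive, Myog-high and Acta1-high barcodes.

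**Figure D5:**
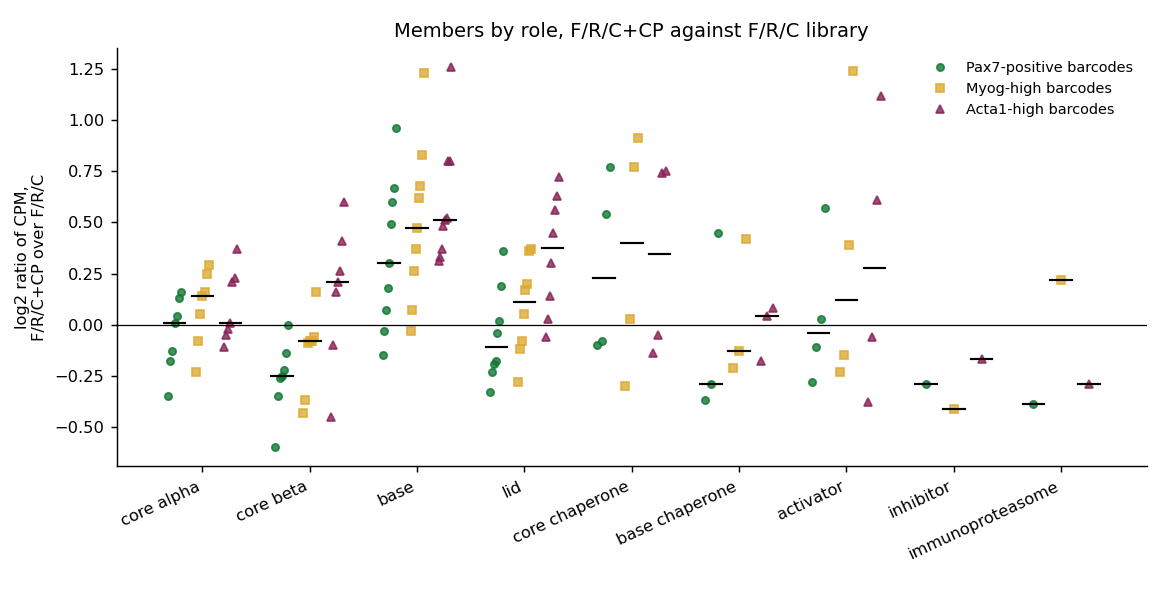
Log2 ratios of CPM in the CP library over the F/R/C library (vertical axis) of the measured proteasome genes by role, 1 marker per gene in Pax7-positive, Myog-high and Acta1-high barcodes; black lines are medians. The base medians (0.30, 0.47 and 0.51) are above 0 in every group, while the core beta median moves from -0.25 in Pax7-positive to 0.21 in Acta1-high barcodes.

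Outside the 26S particle, Psmg2 was higher with CP by 0.82 (0.74 to 0.90) over all kept barcodes and by 0.74 to 0.77 in the 3 groups, and Psmg4 by 0.57 and by 0.54 to 0.91. Their partners Psmg1 and Psmg3 were at -0.16 and -0.13. Psme1 was higher by 0.57 (0.46 to 0.69), 1.24 (0.75 to 1.77) and 1.12 (0.63 to 1.67) in the 3 groups, while Psme2 was at -0.11, 0.39 and -0.06. The 2 parts of the PA28 cap therefore differed between libraries although both were lower in muscle groups of each. Psme3 (0.07), Psme4 (-0.26), Psmf1 (-0.30) and Psmd9 (-0.34) over all kept barcodes were within the fold, as was Psmd10 (0.45).

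Among 56 other ubiquitin-proteasome and interferon genes listed beside them, some were past the fold in both libraries. Adrm1, a ubiquitin receptor of the proteasome, was at 0.69 and 0.76 in Myog-high and 0.59 and 0.99 in Acta1-high barcodes of the F/R/C and CP libraries. Ubxn4, a p97 cofactor, was past the fold in the same 4 comparisons (0.53, 0.83, 0.61 and 0.94). Of 39 such genes measured in both libraries, 9 were past the fold upward in Myog-high barcodes of both (Adrm1, Akirin2, Midn, Zfand5, Nsfl1c, Ubxn4 and the muscle genes Trim55, Asb2 and Klhl41) and 1 downward, the shuttle factor Ubqln2 (-0.83 and -0.95), against 10.2% and 25.2% of all features measured in both.

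In Acta1-high barcodes 10 of 42 were past the fold upward in both libraries and 9 downward, against 13.1% and 43.9% of all features. The upward genes included Adrm1, Nfe2l1, Ubxn4 and 6 muscle E3 ligase genes, of which Trim63, also named MuRF1, was at 6.92 and 3.35. A gene under 10 CPM in Pax7-positive barcodes is measured only if it is higher in the other group. Such genes could therefore be counted upward only, here and in Myog-high barcodes, and the Acta1-high group was itself picked by a muscle gene. Nfe2l1, the transcription factor known to induce proteasome genes, was at 0.58 and 0.78, and its relative Nfe2l2 was at -2.03 and -0.83. The other downward genes were Ubqln2, the proteasome-bound deubiquitinases Uchl5 and Usp14, Ecpas, Ube3c, Ddi2, Faf2 and B2m.

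Between libraries over all kept barcodes, Nfe2l1 was at 0.89. The muscle genes Trim54 (1.84), Klhl40 (1.54), Klhl41 (1.52), Trim63 (1.19) and Trim55 (1.07) were beyond 1, with the muscle markers at 6729 and 19040 CPM beside them, and Fbxo30 was at -1.06. In Pax7-positive barcodes, where the muscle markers were at 637.3 CPM with F/R/C and 5420 CPM with CP, Klhl41 and Trim55 were at 3.87 and 2.52. Ngly1, which processes Nfe2l1, was at -1.24 in the same barcodes. In Myog-high and Acta1-high barcodes Fbxo30 was at -1.31 and -1.60, and Trim54 and Trim63 were at 2.48 and 1.55 in Myog-high barcodes. Of the 14 interferon and antigen presentation genes only 3 were measured over all kept barcodes, B2m (0.37), Ifngr1 (-0.83) and Ifngr2 (0.21). B2m, the light chain of class I molecules, was at -1.08 in Myog-high over Pax7-positive barcodes of F/R/C and at -0.01 in those of the CP library, so that it was 1.33 higher between libraries in that group, opposite to Tap2.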

How the data were processed

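The data were 2 droplet single-cell 3-prime libraries of mouse iMPCs, 1 per condition, grouped by the sample labels. The deposited values are counts of UMIs, which came from the authors' runs of Cell Ranger 7.0.0 against GRCm39. STARsolo and Seurat 4.2.1 also stand in the submitters' processing notes. A free RNA correction of the F/R/C+CP library is described, but the deposited counts are whole numbers, so whether they hold it is unknown. Kept barcodes had from 250 up to 4000 genes (7000 with CP), no more than 15% mitochondrial and 40% ribosomal protein UMIs.

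UMIs were summed per group and library. Ratios of CPM had exact conditional binomial intervals of 95%, levels had Poisson intervals, and a count of 0 was given a limit of 3 counts. With 1 library per condition no test was run, and cells were not treated as replicates. A gene was measured at a mean of 10 CPM, and the fold was 0.5 in log2. Named were the catalytic, immunoproteasome, activator and inhibitor genes, the 3 highest and 3 lowest measured proteasome genes of each comparison, and other pathway genes past 0.5 in both libraries or past 1 between libraries. Some pathway genes that met this rule are not reported here. Other subunits were added to describe the roles after their values were seen. The members and lists were chosen with earlier results of these data known. Intervals cover counting error only.

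Doublets were not removed: Scrublet called 13 barcodes in the first library, too few to rely on, and 299 in the second, and leaving out top scores was an alternative. Other alternatives were scaling to the median feature of at least 50 CPM, TMM (edgeR 4.0.16), no barcode filter, at least 1000 genes, other group cuts, thinning to 2000 UMIs and the shared depth range. The ratio and its interval were tested on simulated counts. Promoters came from RefSeq (GRCm38.p6), and no GRCm39 coordinates were used. Python 3.11.15, scipy 1.17.1 and scanpy 1.11.5 were used.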

Additional observations from a re-analysis of the deposited data

How the results depend on the processing

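Of 124 values of the 8 medians of constitutive 26S genes and the 2 immunoproteasome sums under the alternatives, 100 stayed within the counting or median interval of the reported value, 22 moved beyond it and the 2 sums turned sign in the shared depth range. 20 of the 100 could not move, since the low value filters kept all 31 genes (16) or the Pax7 settings left the compared barcodes as they were (4). 4 medians near 0 also changed sign, that of Pax7-positive barcodes between libraries (-0.03) to 0.11 (median feature), 0.13 (TMM) and 0.03 (no barcode filter), and that of Acta1-high barcodes of F/R/C as given below. No paired analysis was possible because each condition has 1 library. TMM moved the constitutive medians between libraries to 0.23 (all kept), 0.13 (Pax7-positive) and 0.34 (Myog-high), those of Myog-high over Pax7-positive to 0.52 (F/R/C) and 0.73 (CP), and those of Acta1-high to 0.60 and 0.89. Scaling to the median feature moved the Acta1-high median of F/R/C to 0.44. Without the barcode filter that median was -0.30, and the Acta1-high median between libraries was 0.66. Groups of 20% moved the latter to 0.16 and the Myog-high medians to 0.17 (F/R/C) and 0.30 (CP), while groups of 5% moved these to 0.41 and 0.54. Pax7-positive barcodes without Mki67 or Top2a UMIs gave 0.57 for Myog-high with CP. The immunoproteasome sum over all kept barcodes was -0.48 (median feature), -0.42 (TMM), -0.48 (no filter) and 0.52 in the shared depth range, and in Pax7-positive barcodes -0.40, -0.38, -1.11 (thinned to 2000 UMIs) and 0.07 (shared range). The causes were not tested. The values of the base and ATPase genes without the barcode filter were added after seeing the data. Single named genes were recomputed under the scalings and barcode filters, but not under other group cuts, and in the shared range only for the immunoproteasome genes. Of their 1176 values, 791 stayed within their interval and 385 moved. None of the 455 whose reported value was past the fold changed sign, and 67 of the 721 within the fold did.

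With 1 clone and library per condition, treatment cannot be told apart from clone, library or depth. Psmb8 and Psmb9 rest on few UMIs, and the shared depth range holds 190 barcodes of the F/R/C library, where the Psmb8 interval included 0 and Psmb9 was lower in CPM with CP, from 11 UMIs with F/R/C and 72 with CP. RNA was counted, and neither proteasome protein nor activity was analysed here.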
